A study of Mus musculus with 20 samples.

Results

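The Krüppel-like factor (KLF) genes Klf2, Klf3, Klf4, Klf6, Klf9, Klf10 and Klf13 were taken by their symbols from the 23382 genes listed in each of 20 mouse RNA-seq libraries. All 7 were present. The libraries came from germinal centre B cells sorted into centrocytes (B220+FAS+GL7+CXCR4-CD86+) and centroblasts (B220+FAS+GL7+CXCR4+CD86-). Each cell type was taken from Myd88 L252P heterozygotes (Cgamma1Cre:+/-; Myd88L252P:+/-) and from controls (Cgamma1Cre:+/-; Myd88L252P:WT), with 5 libraries in each of the 4 groups. Every group, controls included, therefore carried 1 copy of Cgamma1Cre, which expresses Cre recombinase from the IgG1 constant region locus and acts mostly in B cells of germinal centres. The labels do not give the age of the mice, how germinal centres were induced, or whether a library came from 1 animal, so p-values measure the spread between libraries. Values are TPM, a measure scaled for gene length and for the library total, as deposited. TPM keeps no read depth, so the depth behind each value is unknown.

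KLF proteins bind GC-rich and CACCC DNA through 3 zinc fingers at the carboxyl end and differ in the cofactors that their other end recruits. KLF2 and KLF4 keep lymphocytes quiescent: in mouse T cells KLF2 drives genes of egress and homing such as S1pr1, and in mouse B cells KLF4 acts downstream of FOXO proteins to restrain division. KLF3 represses through CtBP corepressors, and KLF9, KLF10 and KLF13 recruit the SIN3A corepressor. KLF6 is an early response gene of many tissues. Centroblasts divide and mutate their antibody genes in the dark zone of the germinal centre, and centrocytes are selected in the light zone. MYD88 is the adaptor of Toll-like and IL-1 receptors, and L252P is the mouse counterpart of a change that recurs in human B cell lymphoma.

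The sequences upstream of Klf2 and Klf4 are shown because these were the members with lower levels in Myd88 L252P centroblasts whose groups did not overlap. They are bases -250 to -31 from the start of the RefSeq transcript, 220 bases on the gene's strand (GRCm38.p6). Klf2 lies on the plus strand of chromosome 8 and its window is chr8:72318812-72319031. Klf4 lies on the minus strand of chromosome 4 and its window is chr4:55532506-55532725. Capitals mark GC boxes (GGGGCGGGG on either strand) in both, the MEF2 site (searched by its name) in Klf2 and the forkhead core (TGTTTA on either strand) in Klf4.
Klf2: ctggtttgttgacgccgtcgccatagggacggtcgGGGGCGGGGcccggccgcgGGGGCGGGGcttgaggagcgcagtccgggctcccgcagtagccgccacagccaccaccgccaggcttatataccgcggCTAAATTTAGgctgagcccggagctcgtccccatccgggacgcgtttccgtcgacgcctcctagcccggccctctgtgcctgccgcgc
Klf4: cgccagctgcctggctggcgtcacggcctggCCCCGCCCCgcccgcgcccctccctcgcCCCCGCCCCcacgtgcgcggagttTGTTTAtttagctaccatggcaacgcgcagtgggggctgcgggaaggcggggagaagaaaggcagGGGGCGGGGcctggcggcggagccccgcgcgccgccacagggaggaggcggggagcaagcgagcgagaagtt
The Klf2 window held 2 GC boxes and a MEF2 match at -118 to -109. The Klf4 window held 3 GC boxes and a forkhead core at -167 to -162. Among 32851 RefSeq windows of the same length, 8.23% held a GC box, 2.6% a MEF2 match and 11.0% a forkhead core. Bases G and C made up 71.4% of the Klf2 window and 74.5% of the Klf4 window, against a median of 51.8% over all windows. Windows were found for 6 of the 7 members, all but Klf10. The CACCC box (CACCC on either strand), present in 47.8% of all windows, matched in neither. The AP-1 site (TGANTCA), the CRE (TGACGTCA), and the kappaB site and CArG box searched by name matched in neither of these windows. They occurred in 6.12%, 1.14%, 6.34% and 1.3% of all windows in that order. Such matches describe letters and not bound sites.

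Libraries 4 and 5 of the Myd88 L252P centroblasts stood apart before any comparison was made. The share of short transcripts (none over 2048 bases) was taken of the summed TPM of 10359 genes with an annotated length. It was 51.8% in library 4 and 58.3% in library 5, and 40.7% to 46.7% in the other 18 libraries. Libraries 4 and 5 also had the fewest genes above 0, with 12895 and 12719, against at least 13053 in the other 18. KLF results that rest on them are given with and without them. Cxcr4 and Cd86, which were used in the sort, followed it: relative to centroblasts, centrocyte Cxcr4 was lower by 1.19 in Myd88 L252P mice and 0.92 in controls on the log2 scale, and Cd86 was higher by 1.22 in Myd88 L252P mice and 1.17 in controls. Cxcr4 also differed between genotypes: it was at 167 ± 14.8 TPM in Myd88 L252P centrocytes against 304 ± 17.7 TPM in control centrocytes, and at 396 ± 114 TPM in Myd88 L252P centroblasts against 575 ± 28.3 TPM in control centroblasts (SD, n = 5 each). The log2 fold changes were -0.86 in centrocytes (limma adjusted p = 0.00277) and -0.59 in centroblasts (adjusted p = 0.0270; -0.28, adjusted p = 0.0424, without libraries 4 and 5). The mean of Cd86 was also lower in Myd88 L252P than in control libraries of each cell type. In centroblasts it was 107 ± 17.2 TPM in Myd88 L252P against 143 ± 30.0 TPM in controls (SD, n = 5 each). With all libraries limma did not call Cd86 between genotypes (adjusted p under 0.05) in either cell type. Without libraries 4 and 5 it was called lower in centroblasts and not called in centrocytes. The part of the Cxcr4 and Cd86 differences in the KLF genotype comparisons was not tested. A point mutation is not read by TPM. Myd88 itself was at 88.8 ± 4.07 TPM in Myd88 L252P centrocytes against 74.4 ± 4.76 TPM in control centrocytes, and at 77.2 ± 11.9 TPM in Myd88 L252P centroblasts against 82.5 ± 9.37 TPM in control centroblasts (SD, n = 5 each), which does not check the labels.

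The members covered a wide range of levels, and their order differed between cell types. Klf2 and Klf6 had the highest means in centrocytes, Klf10 and Klf13 lay in the middle, and Klf3, Klf4 and Klf9 were lowest in every group. The sum of the 7 was 198 ± 19.7 TPM in Myd88 L252P centrocytes and 234 ± 27.8 TPM in control centrocytes. It was 101 ± 28.9 TPM in Myd88 L252P centroblasts and 150 ± 15.5 TPM in control centroblasts (SD, n = 5 each). Klf2 supplied 29.6% of that sum in Myd88 L252P centrocytes, 34.3% in control centrocytes, 16.6% in Myd88 L252P centroblasts and 25.8% in control centroblasts. In centrocytes of both genotypes Klf2 ranked first by mean, with ranges that overlapped those of Klf6. In Myd88 L252P centroblasts Klf6 ranked first in all 5 libraries, without overlap. Klf2 there ranked below Klf13 and Klf10 by mean, and its range overlapped both. Klf10 exceeded Klf2 in only 2 of the 5 libraries. In control centroblasts Klf6 again ranked first without overlap, and Klf2 was second and overlapped Klf13. Klf10 and Klf13 overlapped each other in every group.

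**Figure D1:**
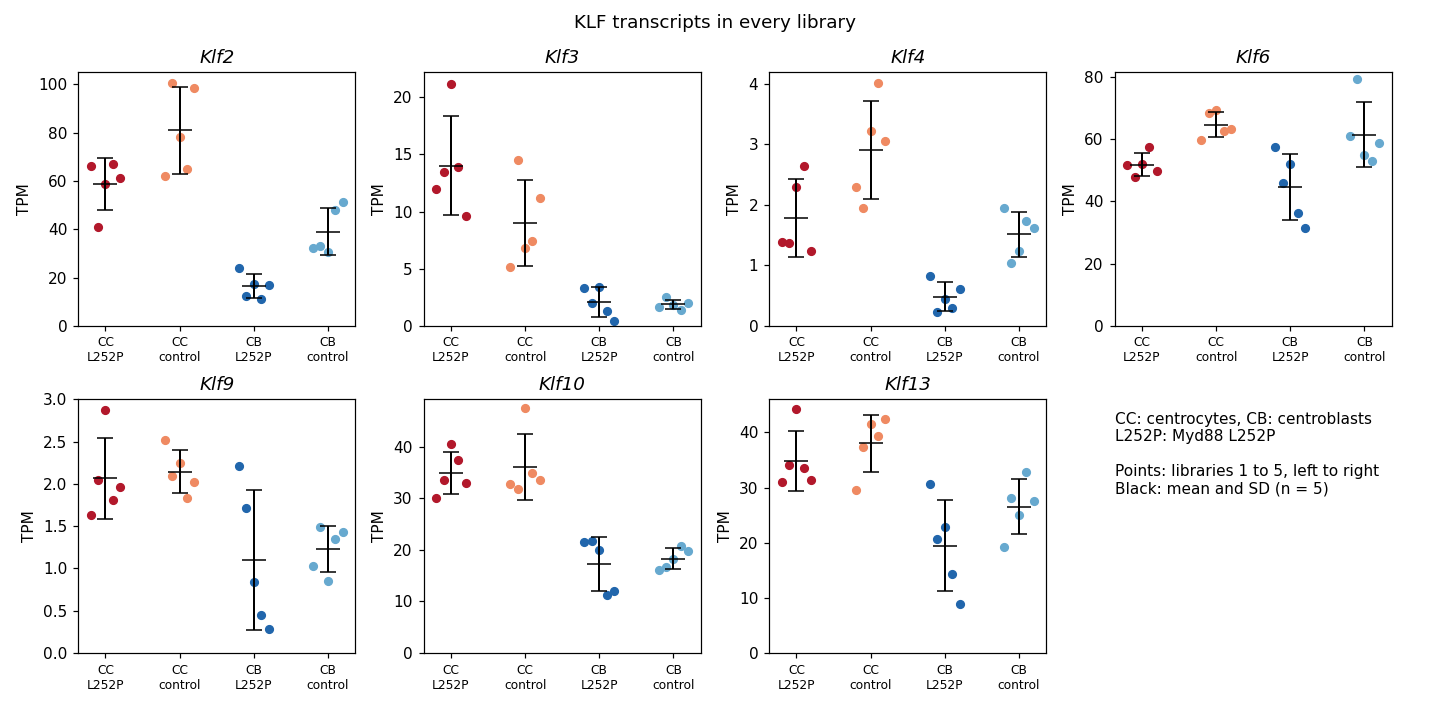
TPM of each KLF gene (y axis from 0) in the 5 libraries of each group, with the mean and SD in black; CC stands for centrocytes and CB for centroblasts. The Klf2 and Klf4 points of Myd88 L252P centroblasts all lie below those of control centroblasts, whereas the ranges of Klf6 overlap between cell types in both genotypes.

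The first question was which KLF genes differ with the Myd88 allele in centroblasts. Klf2, Klf4 and Klf6 were lower in Myd88 L252P centroblasts, and no member was higher. This was 3 of 7 members (1 of 7, Klf2, without libraries 4 and 5), against 3.38% of the 11386 genes tested called lower and 4.29% called in either direction. Calls are Benjamini-Hochberg adjusted p-values under 0.05 over all tested genes from limma on log2(TPM + 1), and log2 fold changes below are on that scale, which understates the change of genes with low TPM. The median log2 fold change was -0.47 over the 7 members and -0.16 over all tested genes. In bulk RNA, fewer cells of a type and less RNA per cell cannot be told apart.

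Klf2 had the clearest difference. Its transcript is encoded on chromosome 8 (72319033 to 72321656, GRCm38, plus strand) with no other annotated gene overlapping it. It was at 24.1, 12.4, 17.3, 11.3 and 17.0 TPM in Myd88 L252P centroblasts, against 32.1, 33.1, 30.4, 47.8 and 51.2 TPM in control centroblasts. The groups did not overlap, as was also so for Klf4 and, in this direction, for 2.99% of all tested genes. The log2 fold change was -1.21 ± 0.20 (SE; 95% interval -1.62 to -0.80; limma adjusted p = 0.00200), the 21st smallest p of all tested genes. Library 4, at 11.3 TPM, was the lowest of the Myd88 L252P group, and library 5, at 17.0 TPM, lay within the range of the other 3. Without them the log2 fold change was -1.09 (adjusted p = 0.0101). The call held in all 29 alternative settings, with log2 fold changes of -1.36 to -1.04 and adjusted p-values of 2.91e-04 to 0.0438.

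Klf4, the other quiescence factor, was low throughout. It was at 0.816, 0.229, 0.448, 0.303 and 0.612 TPM in Myd88 L252P centroblasts, against 1.94, 1.04, 1.24, 1.73 and 1.61 TPM in control centroblasts. All 5 Myd88 L252P libraries were below 1 TPM and all 5 controls above it. Klf4 thus passed the filter of at least 1 TPM in 5 libraries only through the other groups. The mean of Myd88 L252P centroblasts was 0.319 of the control mean, and the log2 fold change was -0.76 ± 0.18 (SE, limma adjusted p = 0.0248). It was -1.54 with 0.1 in place of 1 added before the log. The call was lost without libraries 4 and 5, where the fold change was nearly the same (-0.75, adjusted p = 0.0528), and in 4 more of the 28 alternatives run (adjusted p 0.00694 to 0.0988 over all 28). Leaving out control centroblast library 4, control library 5 or Myd88 L252P library 4 alone ended it, at adjusted p-values of 0.0587, 0.0599 and 0.0580.

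Klf6 passed the threshold narrowly. It was at 57.4, 45.9, 52.0, 36.4 and 31.4 TPM in Myd88 L252P centroblasts, against 61.1, 79.3, 55.1, 52.9 and 58.8 TPM in control centroblasts. The groups overlapped, with 4 of the 5 Myd88 L252P libraries below every control and the lowest values in libraries 4 and 5. The log2 fold change was -0.47 ± 0.13 (SE, limma adjusted p = 0.0483). It was -0.23 without libraries 4 and 5 (adjusted p = 0.295). The call held in 5 of 29 alternatives, whose adjusted p-values ran from 0.00694 to 0.295, and was lost when any single library other than Myd88 L252P centroblast libraries 1, 2 and 3 was left out (log2 fold changes -0.52 to -0.36 in these).

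The SIN3A-binding members and Klf3 did not pass the test in centroblasts. Klf13, first described as an activator of the chemokine gene Ccl5 in T cells, was at 30.6, 20.7, 22.8, 14.3 and 8.97 TPM in Myd88 L252P centroblasts, against 19.2, 28.0, 25.0, 32.8 and 27.5 TPM in control centroblasts. Libraries 4 and 5 were the only ones below all controls. The log2 fold change was -0.51 ± 0.22 (SE, limma adjusted p = 0.123), and -0.10 (adjusted p = 0.855) without them; it was called in 1 of 29 alternatives, without Myd88 L252P library 1 (-0.70, adjusted p = 0.0168). Klf13 had the longest transcript of the 7 (6396 bases) and Klf2 the shortest (1847 bases).

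Klf10, induced early by TGF beta, was at 21.4, 21.7, 19.9, 11.3 and 12.1 TPM in Myd88 L252P centroblasts, against 16.1, 16.6, 18.2, 20.7 and 19.8 TPM in control centroblasts. Libraries 1 and 2 lay above every control and libraries 4 and 5 below every control. Klf9, a target of glucocorticoid and thyroid hormone, was at 2.22, 1.71, 0.835, 0.452 and 0.285 TPM in Myd88 L252P centroblasts, against 1.03, 1.49, 0.853, 1.34 and 1.44 TPM in control centroblasts. Klf3 was at 3.32, 2.01, 3.44, 1.27 and 0.402 TPM in Myd88 L252P centroblasts, against 1.62, 2.52, 1.80, 1.42 and 2.02 TPM in control centroblasts. Both spanned the controls, with libraries 4 and 5 lowest. Their log2 fold changes, -0.12 for Klf10, -0.17 for Klf9 and -0.01 for Klf3, were 0.20, 0.19 and 0.44 without these libraries. None of these 3 was called in any alternative run.

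**Figure D2:**
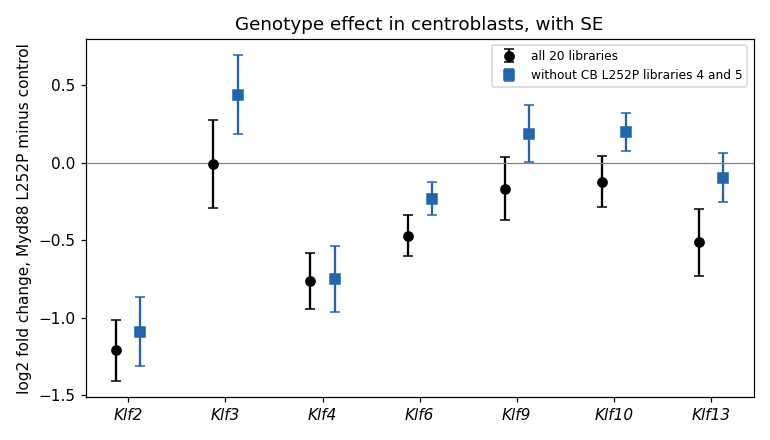
Log2 fold change on the log2(TPM + 1) scale, Myd88 L252P minus control centroblasts, with its SE, from all 20 libraries (circles) and without Myd88 L252P centroblast libraries 4 and 5 (squares). Klf2 and Klf4 keep nearly the same value, at -1.21 and -1.09 for Klf2, whereas Klf3, Klf9 and Klf10 turn from negative to positive.

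In centrocytes, no KLF gene was called between genotypes by limma, although 4 had an unadjusted p under 0.05. Over all tested genes 1.20% were called in either direction. The median log2 fold change was -0.12 over the members and 0.02 over all genes. Klf6 was the member whose groups did not overlap, at 51.7, 47.8, 52.1, 57.6 and 49.9 TPM in Myd88 L252P centrocytes, against 59.7, 68.5, 69.5, 62.6 and 63.4 TPM in control centrocytes. Its log2 fold change was -0.32 ± 0.13 (SE, limma adjusted p = 0.396), and 1.99% of all tested genes had such non-overlapping lower values. It was called with 2 of the 29 alternatives (adjusted p 0.0249 to 0.776 over all 29), one of them a fit of the centrocyte libraries alone (0.0275).

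Klf2 in Myd88 L252P centrocytes was at 66.0, 40.8, 58.6, 67.1 and 61.3 TPM, against 62.1, 100.7, 78.3, 65.1 and 98.4 TPM in control centrocytes. The groups overlapped, with 3 Myd88 L252P libraries below every control. The log2 fold change was -0.45 ± 0.20 (SE, limma adjusted p = 0.432). Klf4 was at 1.38, 1.37, 2.29, 2.64 and 1.23 TPM in Myd88 L252P centrocytes, against 2.30, 1.95, 3.22, 4.01 and 3.06 TPM in control centrocytes, also with 3 libraries below every control (-0.49 ± 0.18, adjusted p = 0.269).

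Klf3 had the opposite sign, at 12.0, 13.5, 21.2, 13.9 and 9.62 TPM in Myd88 L252P centrocytes, against 5.11, 14.5, 6.83, 7.45 and 11.1 TPM in control centrocytes. The ranges overlapped, and 1 Myd88 L252P library lay above every control (0.62 ± 0.28 SE, limma adjusted p = 0.458). The annotation places 2 other genes over Klf3, 1 on each strand, and 2 over Klf13 on the opposite strand, and the sources used here do not say whether counting used the strand, so reads of these genes may be mixed. Klf9, Klf10 and Klf13 had log2 fold changes between -0.12 and -0.04.

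The difference between the genotype effects was tested directly, as the effect in centrocytes minus that in centroblasts. No member was called by limma, and 1, Klf2, had an unadjusted p under 0.05. Its effect was 0.76 ± 0.28 (SE; 95% interval 0.18 to 1.34; adjusted p = 0.403), which means less negative in centrocytes. Of all tested genes 0.0176% were called, which is 2 genes. For Klf4 the 95% interval of the difference was -0.26 to 0.80, and for Klf6 it was -0.24 to 0.55. The lack of a call in centrocytes therefore does not show that the allele acts on these genes in centroblasts alone.

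**Figure D3:**
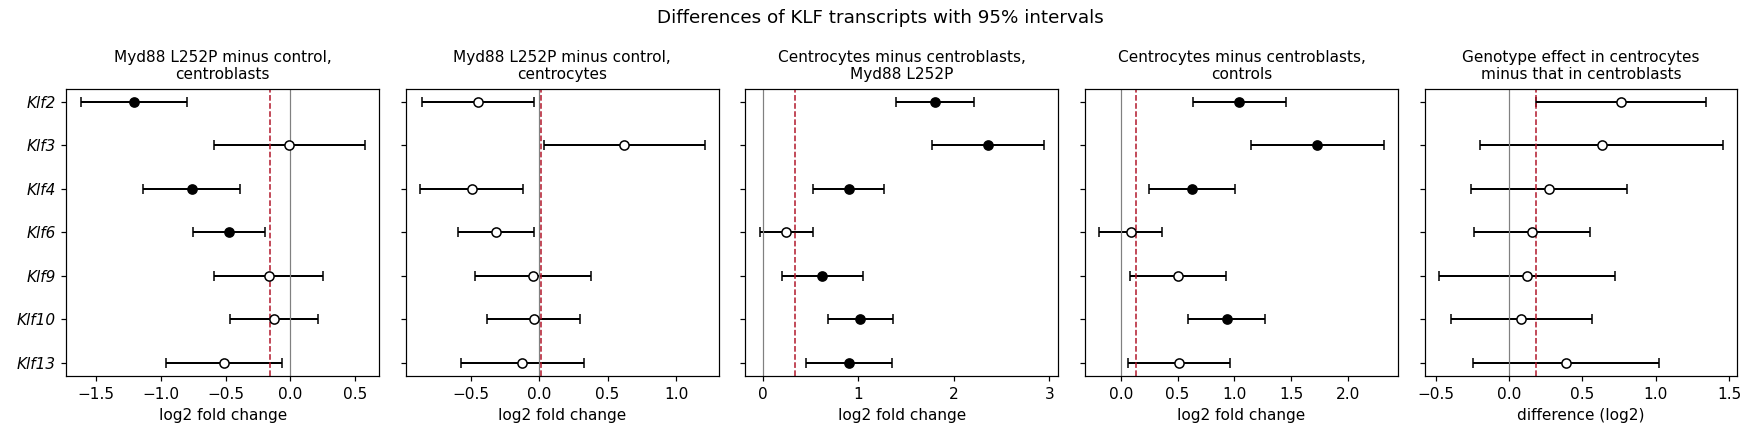
Log2 fold changes on the log2(TPM + 1) scale with 95% intervals for the 7 members in 5 comparisons; filled circles passed an adjusted p under 0.05, and the dashed line is the median over all tested genes. Klf2 lies farthest below that line in centroblasts (-1.21 against -0.16), and Klf3 farthest above it between cell types in both genotypes.

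The next comparison was between cell types. In Myd88 L252P mice 6 of 7 members were higher in centrocytes than in centroblasts, and in controls 4 of 7 were. Without libraries 4 and 5 of Myd88 L252P centroblasts the counts were 5 and 6. No member was lower in either fit. The background with all libraries was high: 48.8% of tested genes were called higher in Myd88 L252P mice and 21.2% in controls (61.5% and 30.7% in either direction). Without libraries 4 and 5, 4079 of 11352 tested genes were called higher in Myd88 L252P mice and 3793 in controls. The median log2 fold change was 0.90 over the members and 0.34 over all genes in Myd88 L252P mice, and 0.63 and 0.14 in controls. Groups did not overlap for 5 members in each genotype, against 28.7% of genes in Myd88 L252P mice and 17.0% in controls that were higher in this way. The comparison in each genotype shares libraries with the genotype comparisons above.

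Klf3 differed most. From the library values above, all centrocyte libraries exceeded all centroblast libraries in both genotypes. It averaged 14.0 ± 4.34 TPM in Myd88 L252P centrocytes and 2.09 ± 1.31 TPM in Myd88 L252P centroblasts, and 9.0 ± 3.77 TPM in control centrocytes and 1.88 ± 0.421 TPM in control centroblasts (SD, n = 5 each). The log2 fold changes were 2.36 ± 0.28 (SE, limma adjusted p = 8.94e-07) in Myd88 L252P mice and 1.73 ± 0.28 (adjusted p = 9.48e-05) in controls. The Myd88 L252P value was 1.92 without libraries 4 and 5.

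Klf2 averaged 58.7 ± 10.6 TPM in Myd88 L252P centrocytes and 16.4 ± 5.08 TPM in Myd88 L252P centroblasts, and 80.9 ± 18.1 TPM in control centrocytes and 38.9 ± 9.77 TPM in control centroblasts (SD, n = 5 each). The log2 fold changes were 1.80 ± 0.20 (SE, limma adjusted p = 2.95e-07; 1.68 without libraries 4 and 5) in Myd88 L252P mice and 1.04 ± 0.20 (adjusted p = 4.44e-04) in controls. Klf4 was higher by 0.90 (adjusted p = 2.91e-04; 0.88 without those libraries) in Myd88 L252P centrocytes and by 0.63 (adjusted p = 0.0117) in control centrocytes. The lowest control centrocyte value of Klf4, 1.95 TPM, was just above the highest control centroblast value, 1.94 TPM.

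Klf10 was at 30.1, 33.5, 40.5, 37.4 and 32.9 TPM in Myd88 L252P centrocytes and at 32.8, 31.8, 47.4, 34.8 and 33.5 TPM in control centrocytes. Every one of these exceeded every centroblast library. The log2 fold change was 1.02 ± 0.16 (SE, limma adjusted p = 3.09e-05; 0.70 without libraries 4 and 5) in Myd88 L252P mice and 0.93 ± 0.16 (adjusted p = 2.12e-04) in controls. The calls of Klf2, Klf3, Klf4 and Klf10 between cell types held in every alternative run for them, in both genotypes.

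Klf13 was at 31.0, 34.0, 44.3, 33.5 and 31.5 TPM in Myd88 L252P centrocytes and at 29.5, 37.3, 41.5, 39.4 and 42.5 TPM in control centrocytes. In Myd88 L252P mice the groups did not overlap, though the lowest centrocyte (31.0 TPM) and the highest centroblast (30.6 TPM) were close. It was called there (0.90 ± 0.22, limma adjusted p = 0.00130) and not in controls (0.51 ± 0.22, adjusted p = 0.0756). Without libraries 4 and 5 the values became 0.49 (adjusted p = 0.0143) and 0.51 (adjusted p = 0.00438), and both were called. The control value, unchanged at 0.51, was also called without Myd88 L252P centroblast library 1 (adjusted p = 0.0396) or library 5 (adjusted p = 0.0153), which enter it through the shared estimate of the spread.

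Klf9 was at 1.63, 2.05, 2.87, 1.81 and 1.96 TPM in Myd88 L252P centrocytes and at 2.52, 2.09, 2.25, 1.83 and 2.02 TPM in control centrocytes. It was called in Myd88 L252P mice (0.62 ± 0.20, limma adjusted p = 0.0121), where the groups overlapped, and not in controls (0.50 ± 0.20, adjusted p = 0.0661), where they did not. Without libraries 4 and 5 the calls swapped: 0.27 (adjusted p = 0.232) in Myd88 L252P mice and 0.50 (adjusted p = 0.0147) in controls. The control call was also made without library 1 (adjusted p = 0.0364) or library 5 (adjusted p = 0.0345) alone. Klf6 had the smallest values, 0.24 (adjusted p = 0.120; 0.0050 without libraries 4 and 5) in Myd88 L252P mice and 0.09 (adjusted p = 0.650) in controls, and turned negative under median-of-ratios scaling (-0.07 in Myd88 L252P mice and -0.03 in controls). Its Myd88 L252P value was called without centroblast library 1 alone (0.34, adjusted p = 0.0259). That scaling shifted the median of all genes between cell types from 0.34 to 0.05 in Myd88 L252P mice.

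Of 10 further KLF genes, 5 reached the filter (Klf7, Klf8, Klf11, Klf12 and Klf16). None was called between genotypes by limma in centroblasts, where 1 had an unadjusted p under 0.05, or in centrocytes, where none had. Klf7, Klf8, Klf11 and Klf16 were called higher in Myd88 L252P centrocytes than in Myd88 L252P centroblasts, against 48.8% of all tested genes. Klf11 was called higher in control centrocytes than in control centroblasts, against 21.2% of all tested genes. Klf12, a repressor that binds CtBP, averaged 2.23 ± 0.527 TPM in Myd88 L252P centrocytes and 0.234 ± 0.129 TPM in Myd88 L252P centroblasts, and 2.50 ± 0.942 TPM in control centrocytes and 0.729 ± 0.117 TPM in control centroblasts (SD, n = 5 each). It was below 1 TPM in all 10 centroblast libraries and passed the filter only through centrocytes, where it is high, so its log2 fold changes, 1.38 in Myd88 L252P mice (1.31 without libraries 4 and 5) and 0.98 in controls, are a description. Without libraries 4 and 5 of Myd88 L252P centroblasts, and leaving Klf12 aside, Klf7 and Klf16 were called in Myd88 L252P mice and Klf11 and Klf16 in controls. In that fit 4079 of 11352 tested genes were called higher in Myd88 L252P mice and 3793 in controls. Of the related SP genes, 4 were tested: Sp1, Sp3 and Sp4 were higher in Myd88 L252P centrocytes than centroblasts, and Sp3 in control centrocytes than centroblasts. Without libraries 4 and 5 the Myd88 L252P log2 fold changes went from 0.75 to 0.27 for Sp1, from 0.56 to 0.43 for Sp3 and from 0.61 to 0.34 for Sp4. All were still called, and Sp1 was called beside Sp3 in controls. With median-of-ratios scaling as well, Sp1 and Sp4 were not called in Myd88 L252P mice.

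Of 10 genes known to act upstream of Klf2 and Klf4, namely the ERK5 kinase cascade, MEF2 factors and FOXO factors, Mef2b was the single call in centroblasts. This was against 4.29% of all tested genes called there in either direction. Mef2b, which encodes a germinal centre transcription factor, was higher, at 538 ± 73.9 TPM in Myd88 L252P centroblasts and 383 ± 97.7 TPM in control centroblasts (SD, n = 5 each; log2 fold change 0.52, limma adjusted p = 0.0324; 0.55 without libraries 4 and 5). The median log2 fold change of the 10 was -0.47, against -0.16 over all genes (-0.12 and -0.02 without libraries 4 and 5), and with all libraries 8 had an unadjusted p under 0.05. In centrocytes none was called and none had an unadjusted p under 0.05. Leaving out control centroblast library 1, 2 or 5 or Myd88 L252P library 5 ended the Mef2b call (log2 fold changes 0.40 to 0.70 and adjusted p 0.00717 to 0.225 over all 29 alternatives). Between cell types 6 were higher and 1 lower in Myd88 L252P mice and 2 were higher in controls. Over all tested genes 48.8% were called higher in Myd88 L252P mice and 21.2% in controls. Without libraries 4 and 5 the counts of the 10 were 4, 1 and 4. Mef2c was called in both, at 0.90 in Myd88 L252P mice (adjusted p = 4.28e-06; 0.67 without libraries 4 and 5) and 0.58 in controls (adjusted p = 0.00108).

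Of 5 trafficking genes linked to KLF2 in T cells, Ccr7 was higher in Myd88 L252P than in control centrocytes. This was against 1.20% of all tested genes called in either direction there. In centroblasts none was called by limma and 3 had an unadjusted p under 0.05. Without libraries 4 and 5, S1pr4 was called lower in centroblasts, as were 165 of 11352 tested genes. Ccr7, encoding the chemokine receptor for CCL19 and CCL21, was at 28.3 ± 9.21 TPM in Myd88 L252P centrocytes and 13.3 ± 3.86 TPM in control centrocytes (SD, n = 5 each; log2 fold change 1.02 ± 0.24 SE, limma adjusted p = 0.0311). In the same libraries Klf2 was at 58.7 ± 10.6 TPM in Myd88 L252P centrocytes and 80.9 ± 18.1 TPM in control centrocytes. The Ccr7 call was lost in 8 of 29 alternatives, with log2 fold changes of 0.86 to 1.16 over all 29. It was lost on leaving out control centrocyte library 1, 3, 4 or 5 or Myd88 L252P centrocyte library 1, 2 or 3. S1pr1, encoding the egress receptor, was at 60.6 ± 10.6 TPM in Myd88 L252P centrocytes and 49.6 ± 11.8 TPM in control centrocytes, and at 15.0 ± 5.57 TPM in Myd88 L252P centroblasts and 22.3 ± 2.35 TPM in control centroblasts, and was called in neither genotype comparison (adjusted p = 0.787 in centrocytes and 0.0703 in centroblasts).

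Between cell types most of these genes were higher in centrocytes, as were 48.8% of all tested genes in Myd88 L252P mice and 21.2% in controls. In Myd88 L252P mice 4 of 5 were higher in centrocytes, by 2.15 for Ccr7, 2.0 for S1pr1 and 1.81 for Itgb7, which encodes the beta7 integrin chain (log2 scale; 1.80, 1.65 and 1.74 in that order without libraries 4 and 5). In controls 4 were higher, by 1.35 for Ccr7, 1.10 for S1pr1 and 1.17 for Itgb7, and S1pr4 was lower. Ccr7 and S1pr1 are also markers of naive B cells. The summed TPM of 7 naive B cell markers was 865 to 1094 in Myd88 L252P centrocytes and 823 to 1213 in control centrocytes. It was 178 to 316 in Myd88 L252P centroblasts and 289 to 484 in control centroblasts. None of the 7 was below 1 TPM in all libraries of a group, and 7 were higher in Myd88 L252P centrocytes than centroblasts, and 6 in control centrocytes than centroblasts. Between genotypes Cr2 (-0.91, limma adjusted p = 0.0258) and Fcer2a (-0.60, adjusted p = 0.0288) were lower in Myd88 L252P centroblasts, where Klf2 was also lower, and Ccr7 was the single call in centrocytes. Neither was called in centroblasts without libraries 4 and 5 (Cr2 -0.99, adjusted p = 0.0691; Fcer2a -0.47, adjusted p = 0.121), and Cd38 was called higher beside Ccr7 in centrocytes. The shares over all tested genes were 3.38% called lower in centroblasts and 1.20% called in either direction in centrocytes. Without those libraries 165 of 11352 tested genes were called lower in centroblasts and 259 higher in centrocytes. The part of the naive B cell markers in the Klf2 and Klf3 differences was not tested.

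**Figure D4:**
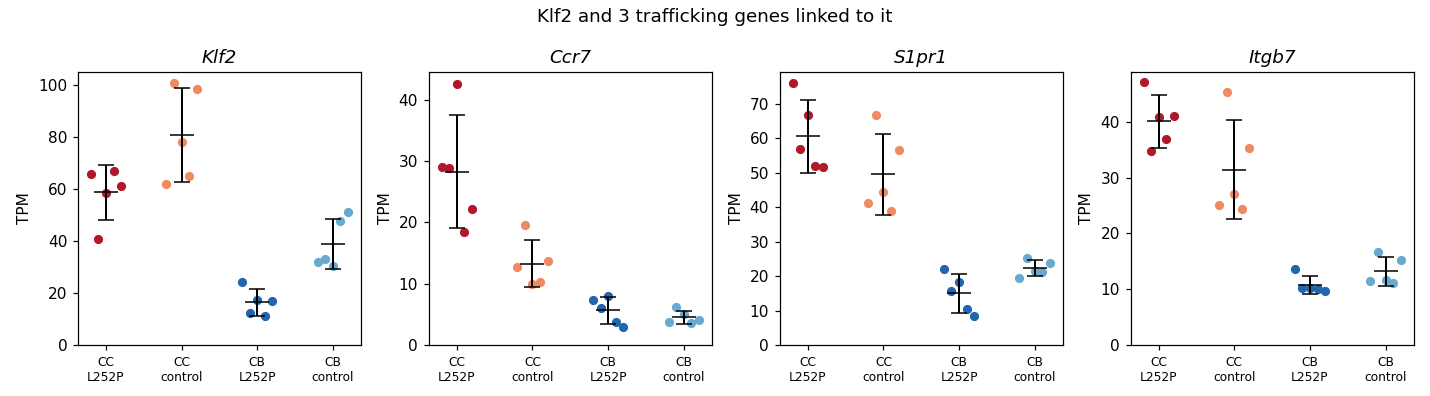
TPM (y axis from 0) of Klf2 and of 3 trafficking genes in the 5 libraries of each group, with mean and SD in black; CC stands for centrocytes and CB for centroblasts. In centrocytes Ccr7 is higher on average in Myd88 L252P than in control libraries (28.3 against 13.3 TPM), whereas Klf2 is lower on average (58.7 against 80.9 TPM).

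Of 17 immediate early and stress genes tested, 9 were lower in Myd88 L252P than in control centroblasts and none was higher. This was against 3.38% of all tested genes called lower. The median log2 fold change of the 17 was -0.64 (-0.39 without libraries 4 and 5). Fos, an AP-1 subunit, was at 70.2 ± 18.4 TPM in Myd88 L252P centroblasts and 177 ± 31.0 TPM in control centroblasts. Dusp1, a MAP kinase phosphatase, was at 27.4 ± 4.87 TPM in Myd88 L252P centroblasts and 55.9 ± 4.27 TPM in control centroblasts (SD, n = 5 each; limma adjusted p = 2.25e-04 for Fos and 9.51e-05 for Dusp1). Of the 17, 6 were lower without libraries 4 and 5, against 165 of all 11352 genes tested in that fit. In centrocytes 3 were lower, namely Dusp1, Fos and Ppp1r15a, against 1.20% of all tested genes called in either direction. Without those libraries 7 of the 17 were lower in centrocytes, against 128 of all 11352 genes. The part of the 17 genes in the KLF differences was not tested. Between cell types 14 were higher and 1 lower in Myd88 L252P mice (13 and 1 without those libraries), and 13 were higher and 1 lower in controls. Over all tested genes 48.8% were called higher in Myd88 L252P mice and 21.2% in controls.

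Other pathway lists were read against 3.38% of all tested genes called lower in Myd88 L252P centroblasts and 1.20% called in either direction in centrocytes. In the TGF beta pathway, which induces Klf10, 3 of 9 genes were lower in Myd88 L252P centroblasts (Smad3, Smad7 and Skil) and none was called in centrocytes. In centroblasts 7 of the 9 had an unadjusted limma p under 0.05. Smad3, a signal transducer, was at 2.84 ± 0.881 TPM in Myd88 L252P centroblasts and 6.13 ± 1.76 TPM in control centroblasts (SD, n = 5 each; log2 fold change -0.88, limma adjusted p = 0.0102), and was the single call without libraries 4 and 5. Of 6 glucocorticoid-induced genes, a class that includes Klf9, Tsc22d3 was lower in both cell types: 32.3 ± 7.06 TPM in Myd88 L252P centrocytes against 58.2 ± 5.49 TPM in control centrocytes, and 27.9 ± 1.72 TPM in Myd88 L252P centroblasts against 56.0 ± 6.77 TPM in control centroblasts (SD, n = 5 each; adjusted p = 0.00149 and 2.25e-04). Of 5 inhibitors of cyclin-dependent kinases, Cdkn1b, encoding p27, was lower in Myd88 L252P centroblasts at 14.8 ± 2.0 TPM against 23.4 ± 2.55 TPM in control centroblasts (SD, n = 5 each; adjusted p = 0.0144). Of 7 KLF corepressor genes tested, Sap30 was lower in Myd88 L252P centroblasts (-0.52, adjusted p = 0.0414; -0.37, adjusted p = 0.168, without libraries 4 and 5).

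The genes with the most similar profiles were sought for each member among 8420 genes, by the root mean square distance between log2(TPM + 1) values centred on each gene's mean over the 20 libraries. A smaller distance means a closer profile, and a member's own root mean square deviation gives the scale. For Klf2, with a deviation of 0.90, they were Egr1 (0.32), Rhof (0.35) and Zfp608 (0.35). Egr1, an immediate early transcription factor, averaged 82.4 ± 11.5 TPM in Myd88 L252P centrocytes, 107 ± 6.14 TPM in control centrocytes, 29.1 ± 9.10 TPM in Myd88 L252P centroblasts and 47.2 ± 7.23 TPM in control centroblasts (SD, n = 5 each). For Klf4 (0.55) they were Klhl14 (0.25), Zfp36 (0.26) and Ppp1r15a (0.26). Zfp36 encodes an mRNA decay factor.

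For Klf3, with a deviation of 1.13, they were Emr1 (0.29), Cd38 (0.29) and Snn (0.31). Emr1 encodes the F4/80 antigen used to mark macrophages, and averaged 12.4 ± 3.58 TPM in Myd88 L252P centrocytes, 8.73 ± 2.78 TPM in control centrocytes, 2.68 ± 1.53 TPM in Myd88 L252P centroblasts and 2.04 ± 0.360 TPM in control centroblasts (SD, n = 5 each). The summed TPM of 11 other macrophage and monocyte markers was 77.6 to 186 in Myd88 L252P centrocytes and 99.6 to 195 in control centrocytes, and 39.2 to 78.8 in Myd88 L252P centroblasts and 41.6 to 60.5 in control centroblasts. Of 7 such markers tested, 6 were higher in centrocytes in each genotype, against 48.8% of all tested genes in Myd88 L252P mice and 21.2% in controls. None of these markers was called between genotypes. Their part in the Klf3 difference was not tested. Ccr2 was below 1 TPM in every group, and Cd14, Fcgr1 and Marco were below 1 TPM in all centroblast libraries.

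The nearest profiles were Herc4 (0.09), Zbed4 (0.11) and Cnot2 (0.12) for Klf6, whose own deviation was 0.29. They were Slc45a4, Btbd9 and Ralgds for Klf9, at 0.15 to 0.16 against a deviation of 0.41. Klf10 (0.55) was closest to Il21r, the IL-21 receptor gene (0.14), and Klf13 (0.52) to Zfp592, Phf12 and Arid3a (0.12 to 0.13). The points of each profile share libraries, and libraries 4 and 5 of Myd88 L252P centroblasts enter every distance.

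Markers of other cells were read in the same libraries. Summed erythroid markers reached 9.0 to 29.6 TPM in Myd88 L252P centrocytes and 3.91 to 12.6 TPM in control centrocytes, and 8.19 to 29.1 TPM in Myd88 L252P centroblasts and 1.85 to 9.93 TPM in control centroblasts. Of 2 such markers tested, Alas2 was higher in Myd88 L252P than in control centroblasts, and neither was called in centrocytes. The shares over all tested genes called in either direction were 4.29% in centroblasts and 1.20% in centrocytes. Without libraries 4 and 5 of Myd88 L252P centroblasts, Alas2 and Slc4a1 were higher in centroblasts and Slc4a1 in centrocytes. In that fit 244 of 11352 tested genes were called higher in centroblasts and 259 in centrocytes. Hbb-b2, Hba-a1 and Hba-a2 were listed at 0 in all libraries. Neutrophil markers summed to at most 7.70 TPM in any library. The summed TPM of 9 T cell markers was 203 to 247 in Myd88 L252P centrocytes and 178 to 295 in control centrocytes. It was 164 to 247 in Myd88 L252P centroblasts and 101 to 231 in control centroblasts. Among the 9, Cd4, Cd8a, Icos and Il7r were below 1 TPM in every library. Cd3d was below 1 TPM in all centrocyte libraries, and Cd3e in all centroblast libraries. In control centroblasts 7 of the 9, all but Thy1 and Lck, were below 1 TPM in all libraries. The sum there thus came almost wholly from Thy1 and Lck. In Myd88 L252P centroblasts Thy1 was below 1 TPM in all libraries. None of the 3 tested was called between genotypes, though all 3 had an unadjusted limma p under 0.05 in centroblasts (median log2 fold change 0.49). Cd3g and Lck were called higher in control centrocytes than centroblasts, against 21.2% of all tested genes. Thy1 was called higher in Myd88 L252P centrocytes than centroblasts, against 48.8% of all tested genes, but not without libraries 4 and 5. None of the 5 plasma cell markers tested was called between genotypes. The part of the erythroid and T cell transcripts in the KLF differences was not tested.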

How the data were processed

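RNA from 20 sorted germinal centre B cell libraries was measured. Per the labels' protocols, total RNA was made into libraries with a stranded mRNA kit, and STAR with build mm10 is named in the submitters' processing notes. No version, annotation or counting tool is given in the sources used here. The deposited files give TPM per gene symbol, normalized by the authors, with no counts or depth.

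Samples were grouped by title, sort and genotype. Of 23382 genes, the 11386 that reached 1 TPM in 5 or more libraries were tested in limma 3.58.1 (R 4.3.3) on log2(TPM + 1), with 4 group means, 16 residual degrees of freedom, empirical Bayes moderation with trend and robust settings, and Benjamini-Hochberg adjustment at 0.05, two-sided. The procedure was tested on simulated data. The scaling of TPM to a fixed total lets a change in abundant or short transcripts shift all others. Gene coordinates and overlaps are from GENCODE on GRCm38, promoter windows from RefSeq.

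The members and lists were chosen with earlier results of these data known. Named were the 7 members, at most 4 called genes per list and comparison by smallest adjusted p, and the 3 nearest profiles of each member. Egr1 and S1pr1 levels and the markers listed at 0 or below 1 TPM are given as well. Alternatives were a pseudocount of 0.1, no filter, a filter of 5 TPM, median-of-ratios scaling, no trend or robust setting, only the 2 groups compared, a replicate block, leaving out libraries 4 and 5 of Myd88 L252P centroblasts (also with the scaling, added after the data were seen), and leaving out each library. Some genes of the pathway and marker lists are not reported here and enter no list count or sum.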

Additional observations from a re-analysis of the deposited data

Results flagged for a closer look

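Among 32 groups of 5 libraries, 1 for each of the 7 members and their sum in each of the 4 groups, 2 held a library far from the others. Chance alone gives such a value in about 1 of 20 groups. Klf10 was at 47.4 TPM in control centrocyte library 3, the highest of its group, with the gap to the next library making up 0.808 of the range. Klf13 was at 44.3 TPM in Myd88 L252P centrocyte library 3, the highest of its group, with a gap of 0.768 of the range. The limit for 5 samples is 0.71.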

How the results depend on the processing

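Of the members' log2 fold changes under the alternatives, 918 kept their direction and side of the threshold, 32 lost and 15 gained a call, and 33 changed sign. Klf2 kept its call in centroblasts and in both cell type comparisons in all of them. The count of members called in centroblasts, 3, held with a pseudocount of 0.1 and without Myd88 L252P library 2 or 3. It was 2 with no filter, a filter of 5 TPM, no trend or robust setting, the replicate block, and both fits with median-of-ratios scaling. It was also 2 when any 1 centrocyte library, control centroblast library 1, 2 or 3, or Myd88 L252P centroblast library 5 was left out. It was 1 in a fit of only the centroblasts and 1 without Myd88 L252P libraries 4 and 5. Leaving out each library gave a count of 1 to 4: 1 without control library 4, control library 5 or Myd88 L252P library 4, and 4 without Myd88 L252P library 1. In centrocytes it was 1 in place of 0 in a fit of only the centrocytes, and 1 under median-of-ratios scaling without libraries 4 and 5. No called value changed sign.

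Uncalled values changed sign as follows. Under median-of-ratios scaling the centroblast genotype effect was 0.072 for Klf3 and 0.048 for Klf10, the difference of effects -0.040 for Klf6 and -0.10 for Klf10, and the cell type effect of Klf6 -0.070 in Myd88 L252P mice and -0.029 in controls. Without libraries 4 and 5 the centroblast effect was 0.44 for Klf3, 0.19 for Klf9 and 0.20 for Klf10, and the difference -0.082 for Klf6, -0.23 for Klf9, -0.23 for Klf10 and -0.027 for Klf13. With both changes these were 0.45, 0.20 and 0.21, and -0.11, -0.26, -0.27 and -0.058, and the cell type effect of Klf6 was -0.15 in Myd88 L252P mice and -0.034 in controls. Leaving out each library gave -0.17 to 0.25 for Klf3 and -0.22 to 0.0068 for Klf10 in centroblasts, -0.13 to 0.0063 for Klf9 and -0.094 to 0.060 for Klf10 in centrocytes, and differences of -0.033 to 0.30 for Klf9 and -0.047 to 0.18 for Klf10. The cause was not tested.

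The count over all genes in centroblasts, 488, was 270 with no filter, 24 with only the 2 groups compared, and 147 to 3102 with each library left out, the highest without Myd88 L252P library 1. In centrocytes, 137 was 83 with a pseudocount of 0.1, 84 with a filter of 5 TPM, 301 with only the 2 groups, 387 without libraries 4 and 5, 399 with scaling as well, and 44 to 238 with each library left out. For the difference of effects, 2 was 0 under median-of-ratios scaling, 0 without trend or robust settings, 4 without libraries 4 and 5, 1 with scaling as well, and 0 to 7 with each library left out. Between cell types in controls, 3498 was 5417 without libraries 4 and 5 and 5335 with scaling as well. Median-of-ratios scaling moved the median centroblast effect of all genes to 0.01, and leaving out libraries 4 and 5 moved it to -0.02.

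Replicate numbers were shared between groups, but the labels do not tie a number to a mouse. Same-numbered centrocyte and centroblast libraries correlated at -2.9e-05 to 0.269 in Myd88 L252P mice and -0.017 to 0.259 in controls, over 0.1 in 4 of 5 pairs of each, and 3 and 4 of 5 correlated best with their own number. Same-numbered libraries of different genotypes correlated at 0.030 to 0.177 in centrocytes, over 0.1 in 3 of 5 pairs. In centroblasts these ran from -0.246 to 0.136, over 0.1 in 1 of 5. All these small values are not correlations of whole profiles, which reached 0.997 for the closest pair of libraries on log2(TPM + 1). With the replicate number as a block, 2 members were called in centroblasts (Klf6 adjusted p = 0.0516), 0 in centrocytes, 6 between cell types in Myd88 L252P mice and 5 in controls (Klf13 adjusted p = 0.0256), and the all-gene count for the difference of effects was 14. Read depth cannot be recovered from TPM, so no counting error stands behind the values of the low genes Klf4 and Klf9.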
